A study of Homo sapiens with 6 samples.

Results

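The subject is a group of 39 interferon-stimulated antiviral genes, taken by gene symbol from a named list that covers transcription factors, RNA sensors, IFIT, OAS, MX, IFITM and ISG15-system genes and other genes induced by interferon. All 39 were found among the 58735 genes of the deposited table, and 32 of them were among the 12177 genes whose mean over the 6 libraries reached 1 FPKM, the level needed for testing. FPKM is the number of fragments per kilobase of exon after scaling for sequencing depth, so it is a level per length. The other 7 genes were MX2, OAS2, RSAD2, IFI44L, BST2, IRF9 and XAF1, and they are described by reads and FPKM.

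The cells were SZ95 sebocytes, a human line of immortalised sebaceous gland cells. In the TRPV3 group (3 libraries) they were transfected with a plasmid that overexpresses TRPV3, a calcium-permeable cation channel, and in the mock group (3 libraries) with a mock plasmid, in both cases at 24 h per the labels. Every library therefore comes from cells that received plasmid DNA, all of 1 cell line, and no untransfected cells were analysed here. The stated purpose was the role of the channel in sebocyte inflammation, and the 3 replicates of each group were described as biological.

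Interferons are secreted proteins by which cells warn each other of viruses. Type I and type III interferons bind different receptors but both activate JAK kinases. These switch on a complex, with STAT2 and IRF9 among its parts, that binds the interferon-stimulated response element in promoters, and the genes it switches on block viral entry, translation, replication and release. Double-stranded RNA and cytosolic DNA are well-known triggers of interferon production in epithelial cells.

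TRPV3 itself was measured at 536, 671 and 738 FPKM in the TRPV3 libraries, against 0.437, 0.359 and 0.415 FPKM in the mock libraries (log2 fold change 8.84 ± 0.12 SE, limma adjusted p = 2.7e-07; the exact two-sided permutation p of 0.1 is the smallest that 3 against 3 libraries allow). The libraries held between 16.0 and 18.4 M recovered reads. TRPV3 replicate 1 stood apart: relative to the mean of all libraries its values fell with gene length, by 0.0804 on the log2 scale per doubling of length, while the slopes of the other 5 libraries were between 0.00231 and 0.0344. Its chi-square per degree of freedom against the other TRPV3 libraries was 42.0 and 48.8, against 2.42 between those 2 and 3.15 to 6.55 between mock libraries. Mock replicate 3 had reads in 34467 genes, against 22311 to 23072 in the other libraries. Of the sebocyte markers, KRT7 averaged 552 and 513 FPKM in the TRPV3 and mock groups and KRT18 averaged 415 and 336 FPKM, while the differentiation genes AWAT1, AWAT2 and MC5R had no read in any TRPV3 library and at most 0.0383 FPKM in a mock library. Of 14 sebocyte markers 9 were tested and 0 passed limma, while limma-voom without TRPV3 replicate 1 called SOX9 as higher (log2 fold change 0.38 ± 0.07, adjusted p = 0.0196); its part in the results was not tested. Fibroblast markers summed to between 2.05 and 2.20 FPKM in TRPV3 libraries and between 2.37 and 2.91 in mock libraries, nearly all of it COL1A1. Immune cell markers summed to between 1.60 and 2.49 FPKM in TRPV3 libraries and between 2.11 and 2.49 in mock libraries, with PTPRC, the pan-leukocyte marker, at 0 in all libraries but mock replicate 3.

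Promoter sequence was compared for the 32 of the 39 genes with an entry in the RefSeq promoter table (build GRCh38.p14), where DDX58 is listed as RIGI. The core of the interferon-stimulated response element was searched as GAAANNGAAA on both strands in the 250 bases before each listed start. Some genes have several listed starts, and a match before any of them counted for the gene. It was found in 21 of the 32 genes (65.6%), against 1014 of all 27305 genes searched (3.71%). The search left out the promoters of a chromosome that holds none of the 39 genes. The following stretches show 6 genes whose levels differed between the groups at an unadjusted p below 0.05 or without overlap of the groups (ISG15, IFIT1, IFIT3, IFI44, IFI6 and RSAD2) and 3 whose ranges overlapped (OAS3, IFITM3 and SAMD9). They are written 5′ to 3′ on the strand of the gene, and capitals mark each match, which reads TTTCNNTTTC where it lies on the opposite strand.
ISG15, chr1:1013365-1013424, plus strand: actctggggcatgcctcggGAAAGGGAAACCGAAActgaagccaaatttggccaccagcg
IFIT1, chr10:89392495-89392554, plus strand: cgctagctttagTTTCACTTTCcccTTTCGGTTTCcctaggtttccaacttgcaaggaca
IFIT3, chr10:89332453-89332512, plus strand: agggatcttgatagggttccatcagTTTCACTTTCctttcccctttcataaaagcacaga
IFI44, chr1:78649746-78649805, plus strand: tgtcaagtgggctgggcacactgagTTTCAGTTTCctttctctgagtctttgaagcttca
IFI6, chr1:27672251-27672310, minus strand: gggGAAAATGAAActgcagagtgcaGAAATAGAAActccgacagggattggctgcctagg
RSAD2, chr2:6877607-6877666, plus strand: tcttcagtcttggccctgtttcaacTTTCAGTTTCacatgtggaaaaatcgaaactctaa
OAS3, chr12:112938306-112938365, plus strand: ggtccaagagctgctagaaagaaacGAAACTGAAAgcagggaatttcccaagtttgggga
IFITM3, chr11:320861-320920, minus strand: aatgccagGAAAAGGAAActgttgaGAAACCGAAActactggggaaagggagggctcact
SAMD9, chr7:93118081-93118140, minus strand: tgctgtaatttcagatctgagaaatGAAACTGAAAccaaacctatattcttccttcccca

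In ISG15 a pair of matches overlaps by 4 bases, and in IFIT1 the matches lie 94 to 103 and 107 to 116 bases before the start. The IFIT3 stretch lies before a listed start inside the gene, and matches were also found before its first listed start. By the deposited gene coordinates, the ISG15, RSAD2 and IFITM3 stretches also lie within the span of their gene. SAMD9 and OAS3 carry the same letters, GAAACTGAAA, 127 to 136 and 134 to 143 bases before the start. The gamma-activated core, searched as TTCNNNGAA on both strands, was found in 10 of the 32 genes (31.2%), among them IRF1, OAS1 and IRF9, against 8.09% of all genes searched. The 2 searches can share bases. A match describes these letters only and does not show that a factor binds there.

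Most of the 39 genes were measured at higher levels in the TRPV3 libraries, and the shift was small. The fold change was above 0 for 26 of the 32 tested genes, against 53.0% of all tested genes, and the median log2 fold change, TRPV3 over mock on log2(FPKM + 1), was 0.22 over the 32 genes and 0.01 over all genes. None of the 32 passed limma at an adjusted p below 0.05, a threshold that 0.0411% of all tested genes (5 of 12177) passed as higher and 0.0% as lower. At an unadjusted p below 0.05, 14 of the 32 (43.8%) were higher with TRPV3 and 0 lower, against 3.28% and 1.21% of all tested genes. In 15 of the 32 every TRPV3 library was above every mock library and in 0 the reverse, against 9.49% and 5.39% of all tested genes. In bulk RNA, a change in the share of cells that express a gene and a change in RNA per cell cannot be told apart.

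The direction depended on TRPV3 replicate 1 for the weakest genes. With that library left out, all 32 fold changes were above 0, against 53.7% of all tested genes, the median was 0.20, and 1 gene, IFIT2, passed (0.0657% of all tested genes did as higher). At an unadjusted p below 0.05, 16 of the 32 were then higher and 0 lower, against 4.51% and 2.55% of all tested genes. Limma-voom on the recovered reads without that library called 10 of the 32 as higher and 0 as lower, against 0.501% and 0.0411% of all tested genes. These 10 were IFIT1, IFIT2, IFIT3, OAS1, OAS3, OASL, MX1, ISG15, DDX58 and IFI44. With all libraries, limma-voom called 0 of the 32 (0.0411% of all tested genes) while 13 were higher and 0 lower at an unadjusted p below 0.05 (2.01% and 2.32%). Adjusted p-values below come from limma unless limma-voom is named. Gene coordinates are those of the deposited table, on hg38, and values after ± are SE for fold changes and SD for levels and ratios.

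**Figure D1:**
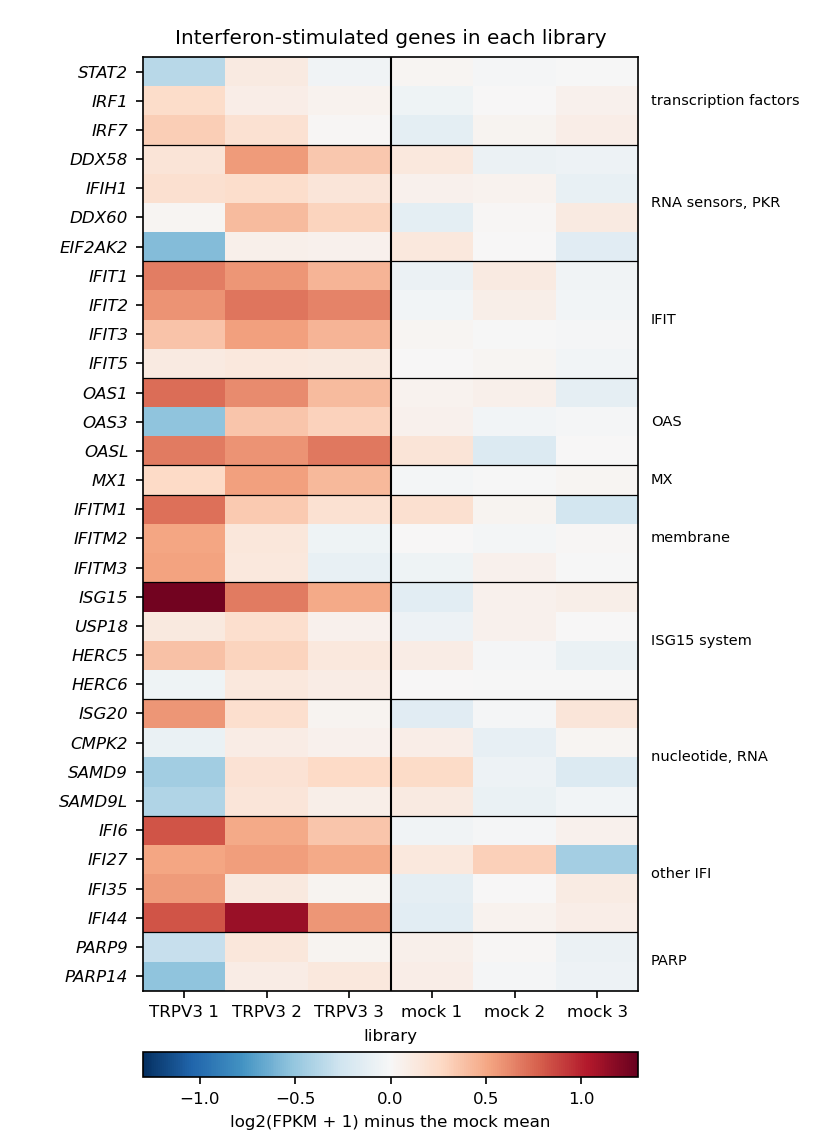
Difference of log2(FPKM + 1) from the mock mean for the 32 tested genes (rows, grouped by role) in the 3 TRPV3 and 3 mock libraries (columns); red is above the mock mean and blue below. The IFIT, OASL, MX1, ISG15 and IFI rows are red in all 3 TRPV3 columns, while EIF2AK2, OAS3, SAMD9, SAMD9L, STAT2, PARP9 and PARP14 are blue in TRPV3 replicate 1.

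Averaged over the 32 genes, log2(FPKM + 1) was 3.19, 3.28 and 3.17 in the TRPV3 libraries and 2.96, 2.95 and 2.92 in the mock libraries. The groups did not overlap on this average. The same average over all tested genes lay between 3.15 and 3.19 in all 6 libraries. The highest library of a gene was TRPV3 replicate 1 for 12 of the 32 genes, TRPV3 replicate 2 for 16, TRPV3 replicate 3 for 3 and mock replicate 1 for 1. The lowest was TRPV3 replicate 1 for 8, TRPV3 replicate 3 for 2, and mock replicates 1, 2 and 3 for 11, 3 and 8. These counts were not made over all tested genes.

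The IFIT genes lie side by side on chromosome 10 and encode proteins that bind viral RNA and limit its translation. All 4 were higher in every TRPV3 library than in any mock library, as were 9.49% of all tested genes. Limma-voom without TRPV3 replicate 1 called 3 of the 4 as higher, against 0.501% of all tested genes. IFIT2 (chr10:89283694-89309276) had 5.597, 6.12 and 5.87 FPKM in the TRPV3 libraries, against 3.30, 3.62 and 3.28 FPKM in the mock libraries. The fold change came to 0.64 ± 0.08 (log2, with SE; limma adjusted p = 0.0895), the closest of the 32 to the threshold, and limma-voom without TRPV3 replicate 1 gave 0.79 ± 0.10 (adjusted p = 0.000758). The gap between the groups was wider than the range within either. IFIT2 shares 65 bases of exon with LIPA, which lies on the opposite strand and had 2375 to 2714 reads per library, so a part of its reads could be of LIPA.

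IFIT1 (chr10:89392546-89406486) had 4.28, 3.95 and 3.52 FPKM in the TRPV3 libraries, against 2.15, 2.60 and 2.21 FPKM in the mock libraries (log2 fold change 0.56 ± 0.10, limma adjusted p = 0.349). IFIT3 (chr10:89327894-89340971) had 9.06, 10.3 and 9.61 FPKM in the TRPV3 libraries, against 6.90, 6.77 and 6.69 FPKM in the mock libraries (0.45 ± 0.07, limma adjusted p = 0.279). For both, the lowest TRPV3 library was above the highest mock library by more than the whole range of the mock values. IFIT5 (chr10:89414586-89421001), which binds RNA with a 5′ phosphate, averaged 7.06 ± 0.0594 FPKM in the TRPV3 group and 6.37 ± 0.149 FPKM in the mock group (SD, n = 3 each), a log2 fold change of 0.13 ± 0.07. As ratios within a library, IFIT1 over IFIT5 was 0.555 ± 0.0545 in the TRPV3 group and 0.364 ± 0.0341 in the mock group, and IFIT2 over IFIT5 was 0.830 ± 0.0306 and 0.533 ± 0.0222. The neighbours thus differed unequally within the same libraries, without overlap of the groups.

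The OAS genes encode enzymes that sense double-stranded RNA and make 2′-5′ oligoadenylates, which activate RNase L, while OASL lacks that activity and enhances RNA sensing by RIG-I. OASL (chr12:121019111-121039242) had 4.64, 4.27 and 4.68 FPKM in the TRPV3 libraries, against 2.96, 2.12 and 2.54 FPKM in the mock libraries (log2 fold change 0.65 ± 0.11, limma adjusted p = 0.279). OAS1 (chr12:112906777-112933222) had 4.50, 4.10 and 3.43 FPKM in the TRPV3 libraries, against 2.44, 2.48 and 2.06 FPKM in the mock libraries (0.59 ± 0.11, limma adjusted p = 0.374). All TRPV3 libraries were above all mock libraries for both genes.

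OAS3 (chr12:112938352-112973249), the most abundant of the family, had 7.47, 14.6 and 13.96 FPKM in the TRPV3 libraries, against 11.6, 10.8 and 11.0 FPKM in the mock libraries. TRPV3 replicate 1 was the lowest of all 6 libraries and replicates 2 and 3 were the highest, so the groups overlapped and the log2 fold change was 0.05 ± 0.22 (limma adjusted p = 0.937). Without replicate 1 it was 0.33 (limma adjusted p = 0.131), and limma-voom without that library gave an adjusted p of 0.0159. OAS2, below the level for testing, had 118, 174 and 145 reads in the TRPV3 libraries, against 71, 56 and 67 reads in the mock libraries. The ratio of OAS2 to OAS3, neighbours on chromosome 12, was 0.115 ± 0.0251 in the TRPV3 group and 0.0534 ± 0.00238 in the mock group.

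**Figure D2:**
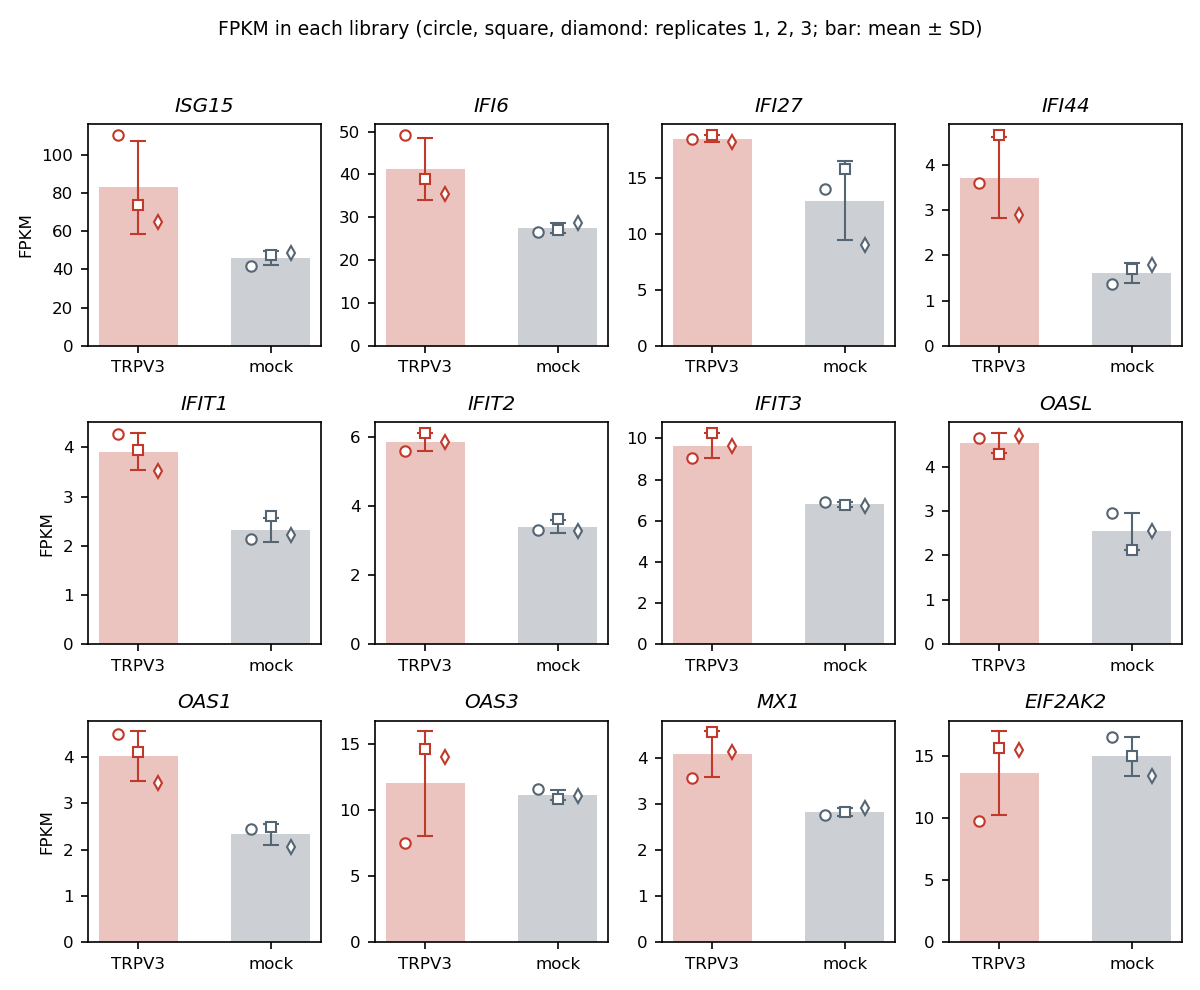
FPKM of 12 genes in each library, TRPV3 left and mock right; bars and error bars are mean ± SD, and circles, squares and diamonds are replicates 1, 2 and 3. In ISG15, IFI6, IFI27, IFI44, IFIT1, IFIT2, IFIT3, OASL, OAS1 and MX1 the groups do not overlap, while in OAS3 and EIF2AK2 TRPV3 replicate 1 lies below every mock library.

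MX1 and MX2 encode dynamin-like GTPases that trap viral nucleocapsids, MX1 those of influenza virus and MX2 those of HIV. MX1 (chr21:41420304-41459214) had 3.57, 4.56 and 4.13 FPKM in the TRPV3 libraries, against 2.76, 2.82 and 2.91 FPKM in the mock libraries (log2 fold change 0.40 ± 0.09, limma adjusted p = 0.612). The groups did not overlap, and limma-voom without TRPV3 replicate 1 gave 0.59 ± 0.09 (adjusted p = 0.003). MX2 was far lower, at 0.248, 0.2998 and 0.258 FPKM in the TRPV3 libraries, against 0.0567, 0.123 and 0.0925 FPKM in the mock libraries. Its mean was 2.96 times as high in the TRPV3 group.

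ISG15 (chr1:1001138-1014540), a ubiquitin-like protein that is attached to other proteins or secreted, had 111, 73.6 and 64.9 FPKM in the TRPV3 libraries, against 41.8, 47.7 and 48.4 FPKM in the mock libraries. Every TRPV3 library was above every mock library, and replicate 1 was the highest by far. The log2 fold change was 0.80 ± 0.19 (limma adjusted p = 0.652), and 0.58 without replicate 1 (limma adjusted p = 0.0962). HERC5, the ligase that attaches ISG15, had 5.21, 4.82 and 4.25 FPKM in the TRPV3 libraries, against 4.11, 3.72 and 3.48 FPKM in the mock libraries (0.27 ± 0.10, limma adjusted p = 0.755). The groups stood apart by less than either group's range. USP18, which removes ISG15, averaged 4.30 ± 0.299 and 3.82 ± 0.207 FPKM in the TRPV3 and mock groups, and HERC6 averaged 5.02 ± 0.405 and 4.77 ± 0.0201 FPKM (SD, n = 3 each); for both, p was above 0.05. Of the other enzymes of ISG15 attachment (3 genes, all tested), 0 passed and 0 had p below 0.05. UBE2L6, the conjugating enzyme, had 57.4, 51.3 and 48.9 FPKM in the TRPV3 libraries, against 49.9, 47.5 and 46.9 FPKM in the mock libraries.

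Among the other IFI genes, IFI44, a cytoplasmic protein with antiviral activity, had the largest log2 fold change of the 32 in this fit. It was measured at 3.59, 4.66 and 2.89 FPKM in the TRPV3 libraries, against 1.37, 1.69 and 1.78 FPKM in the mock libraries (0.84 ± 0.15, limma adjusted p = 0.374; limma-voom without TRPV3 replicate 1, adjusted p = 0.0305). The lowest TRPV3 library was above the highest mock library by more than the range of the mock values. IFI6, a mitochondrial protein that delays apoptosis, had 49.3, 38.96 and 35.5 FPKM in the TRPV3 libraries, against 26.6, 27.1 and 28.7 FPKM in the mock libraries (0.56 ± 0.12, limma adjusted p = 0.55). IFI27, a small mitochondrial protein, had 18.5, 18.9 and 18.2 FPKM in the TRPV3 libraries, against 13.99, 15.8 and 8.999 FPKM in the mock libraries (0.52 ± 0.18, limma adjusted p = 0.755). The IFI27 difference was widened by mock replicate 3: without it the log2 fold change was 0.30, while the groups still did not overlap. IFI35 averaged 12.3 ± 2.64 and 10.2 ± 0.860 FPKM in the TRPV3 and mock groups (SD, n = 3 each), with overlapping ranges.

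Of the sensors of viral RNA and PKR, 2 of 4 genes were higher with TRPV3 at an unadjusted p below 0.05 and 0 lower. At that threshold 3.28% of all tested genes were higher and 1.21% lower. DDX58, which encodes the sensor RIG-I, had 4.34, 5.97 and 5.06 FPKM in the TRPV3 libraries, against 4.22, 3.51 and 3.56 FPKM in the mock libraries (log2 fold change 0.36 ± 0.12, limma adjusted p = 0.755; limma-voom without TRPV3 replicate 1, adjusted p = 0.0444). IFIH1, the sensor MDA5, had 5.32, 5.40 and 5.11 FPKM in the TRPV3 libraries, against 4.67, 4.63 and 4.12 FPKM in the mock libraries (0.20 ± 0.08, limma adjusted p = 0.755). In both, the lowest TRPV3 value was above the highest mock value, in DDX58 by less than the range within either group. DDX60, a helicase that assists RIG-I, averaged 3.98 ± 0.663 and 3.20 ± 0.348 FPKM in the TRPV3 and mock groups. EIF2AK2, the kinase PKR that stops translation on double-stranded RNA, had 9.76, 15.6 and 15.5 FPKM in the TRPV3 libraries, against 16.5, 14.98 and 13.3 FPKM in the mock libraries. Its log2 fold change was -0.15 ± 0.18, the lowest of the 32, and 0.06 without TRPV3 replicate 1.

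The IFITM genes encode membrane proteins that block fusion of viruses with the cell. IFITM3 was the most abundant of the 39 genes, at 221, 168 and 144 FPKM in the TRPV3 libraries, against 147, 159.8 and 153 FPKM in the mock libraries (log2 fold change 0.19 ± 0.16, limma adjusted p = 0.755). IFITM1 had 22.4, 17.02 and 15.3 FPKM in the TRPV3 libraries, against 15.4, 13.6 and 11.0 FPKM in the mock libraries (0.42 ± 0.17, limma adjusted p = 0.755). IFITM2 had 19.8, 15.2 and 13.1 FPKM in the TRPV3 libraries, against 13.7, 13.3 and 13.8 FPKM in the mock libraries. In all 3 genes TRPV3 replicate 1 was the highest library, TRPV3 replicate 2 was also above the mock libraries, and TRPV3 replicate 3 lay within or below the mock range. Without TRPV3 replicate 1 the log2 fold changes were 0.02 for IFITM3, 0.27 for IFITM1 and 0.05 for IFITM2. IFITM1 and IFITM2 share 351 bases of exon on the same strand, so reads could be split between them.

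Of the transcription factors of the pathway, 0 of 3 tested genes had an unadjusted p below 0.05 (3.28% of all tested genes were higher and 1.21% lower). STAT2, which carries the activating domain of the interferon-induced complex, had 5.25, 7.66 and 6.74 FPKM in the TRPV3 libraries, against 7.14, 6.93 and 6.96 FPKM in the mock libraries (log2 fold change -0.10 ± 0.12, limma adjusted p = 0.786). IRF7, the main amplifier of type I interferon, averaged 11.4 ± 1.31 and 9.96 ± 0.824 FPKM, and IRF1 averaged 7.53 ± 0.585 and 6.82 ± 0.294 FPKM, in the TRPV3 and mock groups (SD, n = 3 each). All 3 had overlapping ranges. IRF1 shares 1716 bases of exon with C5orf56 on the opposite strand, which had 57 to 111 reads per library, so reads could be shared. IRF9, below the level for testing, averaged 0.477 ± 0.0207 FPKM in the TRPV3 group and 0.430 ± 0.147 FPKM in the mock group, and 48.4% of its exon length is shared with an overlapping gene model on the same strand.

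SAMD9, a restriction factor of poxviruses, had 9.21, 14.96 and 15.7 FPKM in the TRPV3 libraries, against 15.6, 12.4 and 11.4 FPKM in the mock libraries, and its groups overlapped over the whole mock range. SAMD9L averaged 1.99 ± 0.581 and 2.06 ± 0.233 FPKM in the TRPV3 and mock groups. PARP14, an ADP-ribosyltransferase, had 4.94, 8.16 and 8.38 FPKM in the TRPV3 libraries, against 8.06, 7.44 and 7.16 FPKM in the mock libraries (log2 fold change -0.10 ± 0.18, limma adjusted p = 0.843). Here TRPV3 replicate 1 was the lowest library and TRPV3 replicates 2 and 3 were the highest. PARP9 averaged 4.83 ± 0.897 and 4.93 ± 0.285 FPKM, and ISG20, an RNA exonuclease, 1.77 ± 0.530 and 1.27 ± 0.244 FPKM, in the TRPV3 and mock groups (SD, n = 3 each). PARP9 shares 217 bases of exon with DTX3L on the opposite strand, which had 1337 to 1977 reads per library. A part of the PARP9 reads could therefore be of DTX3L. CMPK2, a mitochondrial nucleotide kinase, averaged 2.86 ± 0.257 FPKM in the TRPV3 group and 2.81 ± 0.252 FPKM in the mock group.

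**Figure D3:**
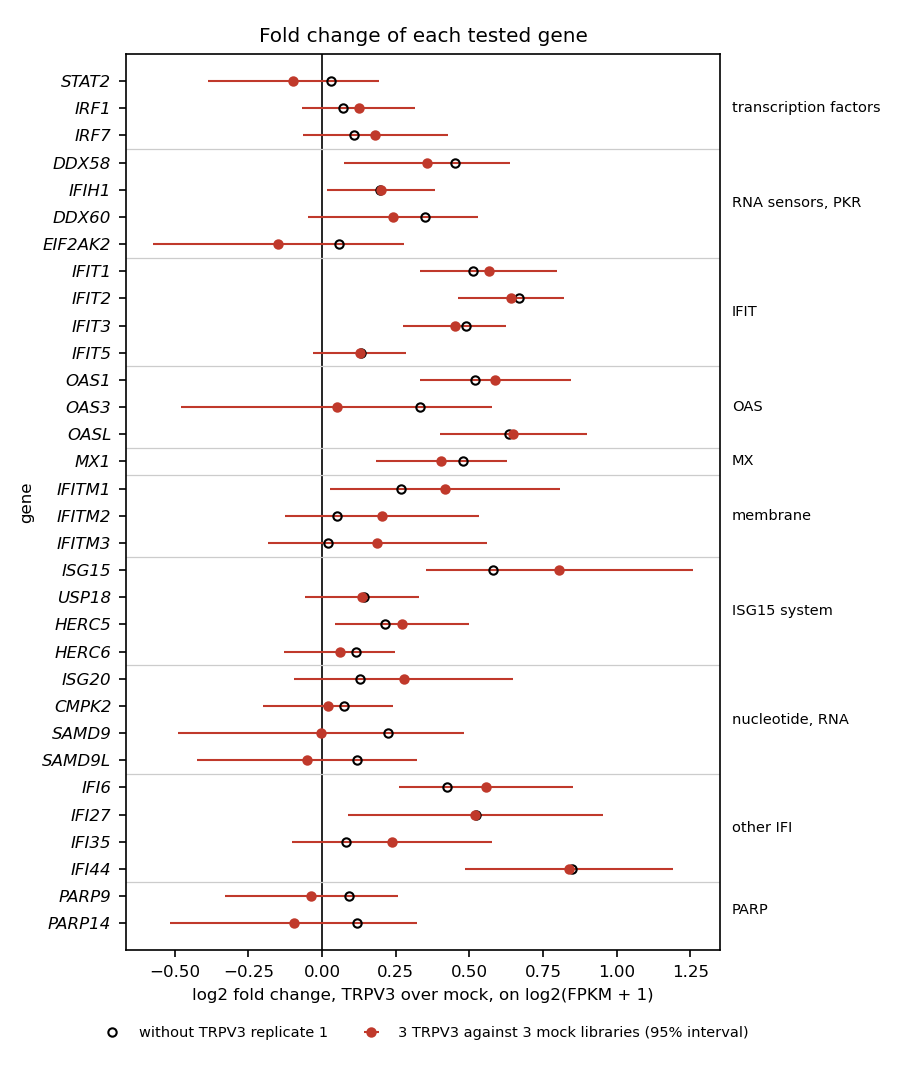
Log2 fold change, TRPV3 over mock on log2(FPKM + 1), of the 32 tested genes by role; filled points with lines are the fit to all 6 libraries with its 95% interval, and open points the fit without TRPV3 replicate 1. All open points lie above 0, while 6 filled points (EIF2AK2, STAT2, PARP14, SAMD9L, PARP9 and SAMD9) lie below it.

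**Figure D4:**
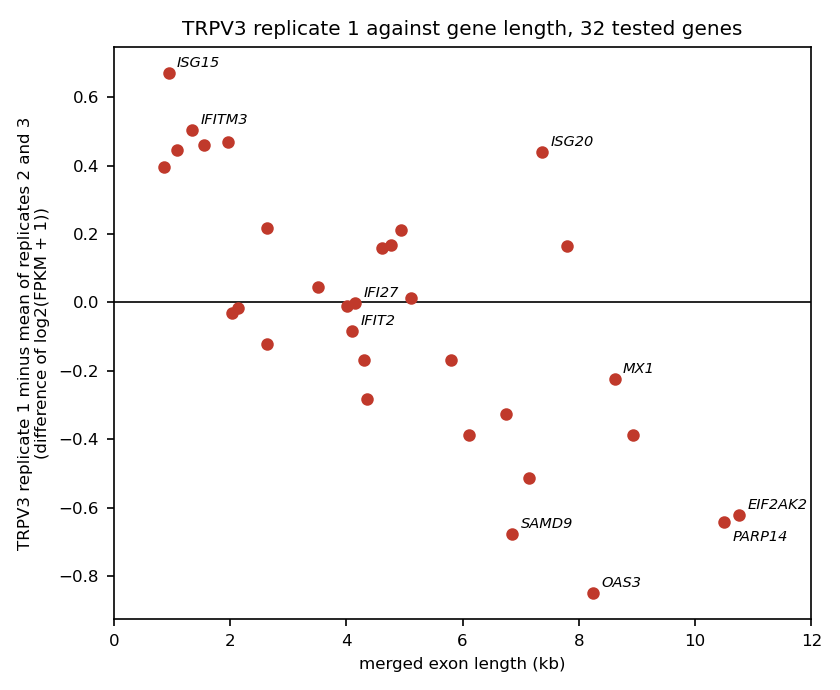
Merged exon length of the 32 tested genes in kb (horizontal) against the difference of log2(FPKM + 1) between TRPV3 replicate 1 and the mean of TRPV3 replicates 2 and 3 (vertical). Most short genes, such as ISG15 and IFITM3, lie above 0, and most long genes, such as OAS3 and EIF2AK2, below it. Of the 10 genes under 3 kb 3 lie below 0, and of the 11 over 6 kb 9 do. The long genes ISG20 and IRF1 lie above 0.

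The difference between TRPV3 replicate 1 and the other TRPV3 libraries followed gene length among these genes, as it did among all genes. The 10 genes under 3 kb had a median difference of 0.42 in log2(FPKM + 1), the 11 of 3 to 6 kb -0.003 and the 11 over 6 kb -0.39; the medians of all tested genes were 0.30, 0.05 and -0.22. Spearman's rho between length and this difference was -0.71 over the 32 genes, which share the same 3 libraries. IFIT2 (4101 bases) and OASL (3517 bases) had log2 fold changes of 0.67 and 0.63 without the library, against 0.64 and 0.65 with it. With the length trend removed from each library, 14 of the 32 were higher at an unadjusted p below 0.05 and 0 lower (3.05% and 2.46% of all tested genes), with DDX60 gained and IFITM1 lost.

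Of the 7 genes below the level for testing, IFI44L, RSAD2, MX2 and BST2 had larger ratios of mean FPKM than any of the 32 tested genes, while OAS2 was 2.21 times as high in the TRPV3 group, against 2.30 times for IFI44, the highest ratio among the tested genes. RSAD2, which encodes viperin, an enzyme that makes a chain-terminating nucleotide, had 65, 82 and 52 reads in the TRPV3 libraries, against 22, 15 and 20 reads in the mock libraries, and its mean FPKM was 3.43 times as high. IFI44L, next to IFI44 on chromosome 1, had 24, 45 and 27 reads in the TRPV3 libraries, against 9, 8 and 5 reads in the mock libraries, 4.23 times as high in mean FPKM. BST2, or tetherin, which holds budding virions on the cell surface, had 19, 17 and 14 reads in the TRPV3 libraries, against 6, 6 and 8 reads in the mock libraries, 2.46 times as high. In MX2, OAS2, RSAD2, IFI44L and BST2 all TRPV3 libraries were above all mock libraries. XAF1, a proapoptotic gene, had at most 3 reads in any library.

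Among 3069 genes that averaged 10 reads or more and under 1 FPKM, the mean in the TRPV3 group was over 2 times the mock mean in 22 (0.717%), and MX2, OAS2, RSAD2, IFI44L and BST2 were among these; the reverse held for 47 (1.53%) and none of the 39. IFI44L and BST2 averaged 7.33 and 6.67 reads in the mock group and reached 10 reads only through the TRPV3 libraries, so the filter in part fixed their ratios, and the 5 genes are given as a description. Without them, 3 of 4 genes were over 2 times as high. Limma-voom on the 14967 genes that averaged 10 reads or more, a setting chosen after seeing the data, called 0 of the 38 genes that qualified (0.0267% of all as higher), while 18 were higher and 0 lower at an unadjusted p below 0.05 (1.8% and 3.21%). In 20 of the 38 every TRPV3 library was above every mock library in FPKM and in 0 the reverse (8.26% and 6.08% of all). Without IFI44L and BST2, these counts were 16 and 18 of 36. Without TRPV3 replicate 1 limma-voom called 14 of the 38 as higher and 0 as lower, against 0.474% and 0.0334% of all. Of these, 13 had at least 10 reads on average in the mock group too: the 10 named before, RSAD2 (log2 fold change 1.71 ± 0.31, adjusted p = 0.0121), MX2 (1.65 ± 0.31, adjusted p = 0.0152) and OAS2 (1.24 ± 0.17, adjusted p = 0.00139). The other was IFI44L (2.16 ± 0.43, adjusted p = 0.023), which qualified only through its TRPV3 reads.

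RSAD2 and CMPK2 are transcribed from opposite strands of neighbouring loci on chromosome 2 and are both known as interferon-stimulated genes. Within a library, the ratio of RSAD2 to CMPK2 in FPKM was 0.272 ± 0.0559 in the TRPV3 group and 0.0801 ± 0.00507 in the mock group (SD, n = 3 each). The ranges did not overlap. The 2 genes share 14 bases of exon. Among other neighbouring pairs compared, HERC5 over HERC6, IFITM1 over IFITM3, SAMD9L over SAMD9 and PARP14 over PARP9 overlapped between the groups. For IFI44L over IFI44, OAS1 over OAS3, IFIT3 over IFIT5 and MX2 over MX1, all TRPV3 ratios were above all mock ratios. The gap was slight for IFI44L over IFI44, at 0.0370 in TRPV3 replicate 1 and 0.0366 in mock replicate 1. OAS1 over OAS3 was 0.603 in TRPV3 replicate 1, whose values fell with gene length. It was 0.281 and 0.246 in TRPV3 replicates 2 and 3, and 0.211, 0.230 and 0.187 in the mock libraries. The share of other gene pairs without overlap was not computed.

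**Figure D5:**
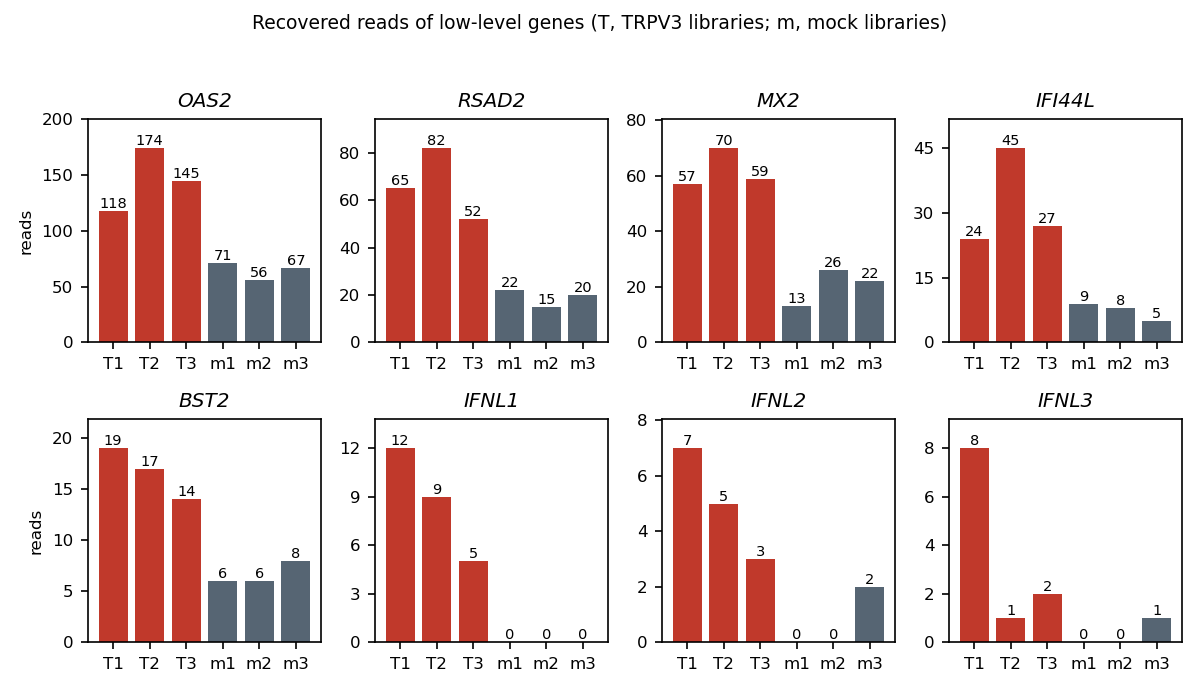
Recovered reads of 5 genes below the level for testing and of the 3 interferon lambda genes in each library (T, TRPV3 replicates 1 to 3, left; m, mock replicates 1 to 3, right). In the 5 interferon-stimulated genes and in IFNL1 every TRPV3 library is above every mock library.

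Interferon genes themselves were near the limit of detection, and 0 of 10 reached the level for testing. The type III interferon IFNL1 (chr19:39296325-39298673) had 12, 9 and 5 reads in the TRPV3 libraries, against 0, 0 and 0 reads in the mock libraries. Its pooled level in the TRPV3 group was 8.50 times that of 3 reads over the mock group, the limit that a count of 0 allows. The counting error of its own 26 reads is not included. IFNL1 was the only 1 of 58735 genes with at least 5 reads in each TRPV3 library and none in any mock library (0.0017%), and the reverse also held for 1 gene (0.0017%), IGSF6; this description was chosen after its values were seen. IFNL2 had 7, 5 and 3 reads in the TRPV3 libraries, against 0, 0 and 2 reads in the mock libraries, and IFNL3 had 8, 1 and 2 reads, against 0, 0 and 1 reads. IFNL2 and IFNL3 are near-identical copies, so reads may be shared between them, and the IFNL3 difference rests mostly on TRPV3 replicate 1.

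Type I and type II interferon genes showed no such pattern. IFNB1 had 3, 1 and 0 reads in the TRPV3 libraries, against 0, 0 and 1 reads in the mock libraries. IFNE had 2, 1 and 2 reads in the TRPV3 libraries, against 4, 5 and 2 reads in the mock libraries. IFNG had 0 reads in all TRPV3 libraries, against 0, 0 and 6 reads in the mock libraries, and IFNA1 and IFNW1 had none in TRPV3 libraries and at most 2 in a mock library. IFNA2 and IFNK had no read in any library. At these counts a difference in type I interferon was not detectable at this depth.

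Of 10 receptor and signalling genes, 8 were tested and 0 passed. IFNGR2, a chain of the receptor for interferon gamma, had 10.5, 10.1 and 10.4 FPKM in the TRPV3 libraries, against 8.89, 8.83 and 8.01 FPKM in the mock libraries (log2 fold change 0.24 ± 0.07, limma adjusted p = 0.755). It was the only 1 of the 8 with p below 0.05 (3.28% of all tested genes were higher and 1.21% lower at that threshold). The type III receptor chain IFNLR1 had 3.65, 4.72 and 4.91 FPKM in the TRPV3 libraries, all below the 4.98, 4.96 and 5.32 FPKM of the mock libraries, and was chosen after its values were seen. JAK1 had 14.02, 21.1 and 21.4 FPKM in the TRPV3 libraries, against 20.7, 19.7 and 18.3 FPKM in the mock libraries.

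Of 12 other sensors and adaptors 11 were tested and 0 passed. At an unadjusted p below 0.05, 2 were higher and 0 lower, against 3.28% and 1.21% of all tested genes. In 3 of the 11 every TRPV3 library was above every mock library and in 1 the reverse, against 9.49% and 5.39% of all. The median log2 fold change of the 11 was 0.04. CGAS, the sensor of cytosolic DNA, had 11.3, 9.48 and 8.96 FPKM in the TRPV3 libraries, against 7.44, 7.18 and 8.57 FPKM in the mock libraries (log2 fold change 0.32 ± 0.11, limma adjusted p = 0.755). TICAM1, the adaptor of TLR3, had 11.0, 10.6 and 12.2 FPKM in the TRPV3 libraries, against 9.17, 8.80 and 10.3 FPKM in the mock libraries (0.24 ± 0.09, limma adjusted p = 0.755). In both the groups did not overlap. IRF3, the factor that starts interferon transcription, had 28.2, 20.9 and 21.7 FPKM in the TRPV3 libraries, against 20.2, 21.2 and 23.2 FPKM in the mock libraries, and TRIM25, a ligase that modifies RIG-I, had 11.8, 17.4 and 17.5 FPKM, against 17.1, 16.3 and 16.2 FPKM.

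Of 7 genes that restrain interferon signalling, all tested, 0 passed. SOCS1, an inhibitor of JAK kinases, had 2.02, 1.59 and 1.65 FPKM in the TRPV3 libraries, against 1.08, 1.37 and 1.34 FPKM in the mock libraries (log2 fold change 0.28 ± 0.11, limma adjusted p = 0.755), with no overlap of the groups. SOCS3, which acts mainly on signalling through IL-6-type receptors, had 8.42, 11.4 and 12.4 FPKM in the TRPV3 libraries, against 7.96, 9.15 and 8.17 FPKM in the mock libraries, and limma-voom without TRPV3 replicate 1 gave 0.47 ± 0.09 (adjusted p = 0.0265). TRPV3 replicate 1 lay within the mock range. Of 6 further IRF genes, 5 were tested, all 5 fold changes were above 0 and 0 had p below 0.05. Of all tested genes, 53.0% were above 0. In the other pathway lists, 4 of 8 receptor and signalling genes and 6 of 11 sensors and adaptors were above 0. So were 2 of 3 other enzymes of ISG15 attachment and 5 of 7 restraining genes.

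Fold changes were set beside the promoter matches. Among tested genes of the 32 with a promoter entry, the 18 with GAAANNGAAA had a median log2 fold change of 0.27 and 10 were higher at an unadjusted p below 0.05. The 9 without it had a median of 0.06, with 2 such genes (DDX58 and OAS1). The tested genes IFIT2, OASL, IRF7, IFITM2 and USP18 had no promoter entry and are in neither group. Their log2 fold changes were 0.64, 0.65, 0.18, 0.20 and 0.14, with IFIT2 and OASL at an unadjusted p below 0.05. Among other tested genes with a searched promoter, the 255 with the core had a median of 0.006 and 2.75% were higher at that threshold. The 8432 without it had 0.01 and 2.53%. These are descriptions of a list chosen with earlier results known, and the difference was not tested. As the printed stretches show, IFITM3, SAMD9 and OAS3 carry the core although their groups overlapped.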

How the data were processed

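RNA was measured in 6 libraries of SZ95 cells (3 TRPV3, 3 mock). The authors deposited FPKM per gene, per the file headers; the submitters' processing notes name HISAT2 2.0.5 and hg38, while for the counting tool and its strandedness the version and setting were not given in the sources used here. Coordinates and lengths equalled GENCODE 29 for 58724 of 58735 genes. FPKM times length gave whole reads for 100% of values (tolerance 0.02 reads), and these reads were analysed as an alternative; for 1 kb of exon, 3 reads equal 0.165 to 0.185 FPKM (counting error only).

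Genes averaging 1 FPKM or more were tested on log2(FPKM + 1) with limma 3.58.1 in R 4.3.3 (group only, empirical Bayes with trend, Benjamini-Hochberg adjustment over all tested genes), after the code was tested on simulated data. Fold changes on this scale understate those of low genes. Members and lists were chosen with earlier results of these data known. Values in every library are given for genes called in the main test or in limma-voom without TRPV3 replicate 1, for those with an unadjusted p below 0.05, for the 8 most abundant and for the 3 lowest fold changes; list genes are named when p was below 0.05 (up to 5), with the 2 most abundant; some genes that this rule names are not reported here. Alternatives were other pseudocounts, filters and scalings, limma-voom, a replicate block, length-trend removal, protein-coding genes only and libraries left out. Same-numbered libraries were checked for pairing and did not deviate together. Promoter windows of 300 bases came from RefSeq. Figures were drawn with matplotlib 3.10.9.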

Additional observations from a re-analysis of the deposited data

How the results depend on the processing

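Over 20 alternative settings, 22 of the 32 tested genes kept the sign of their log2 fold change in every setting that tested them. The other 10 had fold changes between -0.15 and 0.19. CMPK2 turned to -0.063 under TPM scaling, -0.015 with total recovered reads, -0.010 with the length trend removed, -0.027 in limma-voom and -0.026 in limma-voom on genes averaging 10 reads. OAS3 turned to -0.046 under TPM scaling, -0.0057 in limma-voom and -0.0041 in limma-voom on genes averaging 10 reads, and HERC6 to -0.024 under TPM scaling. With the length trend removed, SAMD9 was at 0.037 and PARP9 at 0.037. In limma-voom without TRPV3 replicate 1, and in the same on genes averaging 10 reads, the values were 0.0054 and 0.0061 for STAT2, 0.033 and 0.033 for EIF2AK2, -0.0088 and -0.0080 for IFITM3, 0.21 and 0.21 for SAMD9, 0.14 and 0.14 for SAMD9L, 0.081 and 0.081 for PARP9, and 0.10 and 0.10 for PARP14. With libraries left out, ranges were -0.20 to 0.031 for STAT2, -0.26 to 0.058 for EIF2AK2, -0.11 to 0.33 for OAS3, -0.032 to 0.086 for CMPK2, -0.13 to 0.22 for SAMD9, -0.16 to 0.12 for SAMD9L, -0.13 to 0.092 for PARP9 and -0.21 to 0.12 for PARP14.

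The number of genes called among all genes, 5, was 2 without a filter, 3 with a filter of 5 FPKM, 66 in limma-voom without TRPV3 replicate 1 and 76 in the same on genes averaging 10 reads, and 2 to 10 with libraries left out. Of the members, 10 and 14 were called in those limma-voom fits and 0 to 1 with libraries left out; of the other pathway lists 1 gene, SOCS3, and of the marker lists 1 gene, SOX9, was called in each of those limma-voom fits. With a filter of 5 FPKM, which left 16 members, 5 had an unadjusted p below 0.05, 5 did not overlap between groups and 12 were above 0, against 3.99%, 16.4% and 58.9% of all 7269 genes. Leaving out libraries gave 9 to 16 members with an unadjusted p below 0.05 (2.47% to 7.75% of all genes), 9 without TRPV3 replicate 2 (4.85%). In limma-voom on genes averaging 10 reads without TRPV3 replicate 1, 23 of 38 did not overlap, against 24.5% of all genes, and 21 of 36 without IFI44L and BST2, which qualified only through TRPV3 reads. The median of the members was 0.15 under TPM scaling, where that of all genes was -0.08, and 0.15 to 0.33 with libraries left out. The cause was not tested.

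Replicate numbers did not pair the libraries: correlations of deviations between same-numbered libraries were -0.27, -0.04 and -0.17. With the number as a replicate block 3 genes and none of the 32 members were called, 12 members had an unadjusted p below 0.05 (3.08% of all genes), and the median was 0.22. The 10-read settings were added after seeing the data. Of the settings tried, those that called more than 1 member all left out TRPV3 replicate 1 and used limma-voom, with 2 TRPV3 libraries left. Limma-voom was run only with all libraries or without TRPV3 replicate 1. Whether it would call as many members with another library left out was therefore not tested. Interferon genes had at most 12 reads in a library, so their values rest on counts near the floor of 3 reads.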

Other observations

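A further 48 interferon-stimulated genes outside the 39 were described as a comparison list, and 43 of them were tested. None passed in limma at an adjusted p below 0.05, as for the 32 tested of the 39 genes. The median log2 fold change was 0.09, 31 of 43 were above 0 (53.0% of all tested genes were), 10 of 43 had all TRPV3 libraries above all mock libraries and 0 the reverse (9.49% and 5.39% of all), and 4 had an unadjusted p below 0.05, all higher with TRPV3 (3.28% of all were).

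The 4 were NT5C3A, SP100, SP110 and IFI16. NT5C3A, a pyrimidine nucleotidase, had 10.5, 9.63 and 9.75 FPKM in the TRPV3 libraries, against 8.19, 8.46 and 7.93 FPKM in the mock libraries (log2 fold change 0.25 ± 0.07, limma adjusted p = 0.755). IFI16, a nuclear DNA sensor, had 5.653, 5.54 and 5.33 FPKM in the TRPV3 libraries, against 4.85, 4.68 and 4.24 FPKM in the mock libraries (0.22 ± 0.08, limma adjusted p = 0.755). SP100, a nuclear body protein, had 4.78, 4.65 and 4.24 FPKM in the TRPV3 libraries, against 3.95, 3.57 and 3.84 FPKM in the mock libraries, and its relative SP110 had 3.33, 3.20 and 2.76 FPKM, against 2.42, 2.68 and 2.42 FPKM. In all 4 the groups did not overlap. The most abundant gene of this list, LGALS3BP, a secreted glycoprotein, had 195, 183 and 178 FPKM in the TRPV3 libraries, against 189.7, 189.4 and 199.8 FPKM in the mock libraries.

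Outside the interferon lists, SOX9, a transcription factor fixed here as a sebocyte marker, had 15.6, 18.1 and 17.1 FPKM in the TRPV3 libraries, against 14.3, 12.6 and 12.9 FPKM in the mock libraries (log2 fold change 0.33 ± 0.09, limma adjusted p = 0.755). It was called in limma-voom without TRPV3 replicate 1 (0.38 ± 0.07, adjusted p = 0.0196).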
